A study of Mus musculus with 12 samples.

Results

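The Janus kinases are a family of 4 tyrosine kinases encoded by Jak1, Jak2, Jak3 and Tyk2. All 4 were found by symbol among the 20432 genes of the deposited table. They were chosen as a gene family and not by a rule on their values, but with earlier results of these data known. Expression was measured by RNA sequencing in 6 mouse pancreatic ductal adenocarcinoma cell lines, 52205, 52419, 52424, 53105, 53369 and 53371, with 1 library of the parental culture and 1 of the Cre culture of each line, 6 pairs in all. The parental cultures are labelled wild type. The Cre cultures are labelled JAK1 KO: they had received the pBabe-Cre-puro retrovirus, which brings in the Cre enzyme together with resistance to puromycin, and had been selected in rising puromycin at 2, 4 and 7 µg/ml. No other allele or promoter is named in the labels, and cultures with an empty retrovirus were not analysed here, so that infection, selection and time in culture cannot be told apart from Cre.

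As background, many cytokine receptors have no kinase activity of their own, and their signalling chains hold a Janus kinase at the inner face. Binding of the cytokine brings chains together, the kinases phosphorylate each other and the receptor, and STAT transcription factors are recruited, phosphorylated and sent to the nucleus. JAK1, JAK2 and TYK2 occur in most tissues and serve interferon and interleukin receptors in different pairs, while JAK2 also serves hormone receptors that use a single kinase. JAK3 is known mainly from lymphocytes, where it binds the common gamma chain, Il2rg, and works in a pair with JAK1.

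The 12 libraries held 11.5 to 18.0 M reads in genes (M, 1000000 reads). Levels are given in CPM, the read count per 1000000 reads of a library after the authors' scaling, and in CPM per kb where different genes are compared. The 9 epithelial markers summed to between 360 and 13219 CPM, and leukocyte markers to between 0.114 and 3.53 CPM. Cdh1, the adhesion protein of epithelial cells, was near absent in line 52419 (0.37 CPM in the parental and 0.61 in the Cre library) and low in line 53369 (17.5 and 36.4 CPM), against 272 to 805 CPM in the other 4 lines. These are bulk cultures, in which fewer cells of a type and less RNA per cell cannot be told apart.

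The promoters of the 4 genes are shown because the kinases differed widely in how much their level varied between lines. Each window runs from 250 bases before to 50 bases after the RefSeq transcription start (build GRCm38.p6), on the strand of the gene. Capitals mark matches on either strand to the GC box GGGCGG, the CCAAT box and the cyclic AMP response element TGACGTCA, so a GC box on the other strand shows as its complement. Jak1 lies at chr4:101265174-101265473 on the minus strand, Jak2 at chr19:29251553-29251852 on the plus strand, Jak3 at chr8:71676133-71676432 on the plus strand and Tyk2 at chr9:21131226-21131525 on the minus strand.
Jak1: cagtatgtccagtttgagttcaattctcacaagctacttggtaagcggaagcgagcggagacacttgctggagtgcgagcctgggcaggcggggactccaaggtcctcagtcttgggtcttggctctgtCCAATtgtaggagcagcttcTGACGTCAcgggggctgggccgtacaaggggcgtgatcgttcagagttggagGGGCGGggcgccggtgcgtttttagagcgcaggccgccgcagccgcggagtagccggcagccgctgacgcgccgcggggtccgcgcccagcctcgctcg
Jak2: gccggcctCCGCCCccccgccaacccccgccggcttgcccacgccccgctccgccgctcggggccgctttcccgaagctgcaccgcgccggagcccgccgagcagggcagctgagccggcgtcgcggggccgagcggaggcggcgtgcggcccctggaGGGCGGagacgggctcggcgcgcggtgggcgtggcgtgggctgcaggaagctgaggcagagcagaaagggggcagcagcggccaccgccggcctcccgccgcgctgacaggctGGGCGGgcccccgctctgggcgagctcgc
Jak3: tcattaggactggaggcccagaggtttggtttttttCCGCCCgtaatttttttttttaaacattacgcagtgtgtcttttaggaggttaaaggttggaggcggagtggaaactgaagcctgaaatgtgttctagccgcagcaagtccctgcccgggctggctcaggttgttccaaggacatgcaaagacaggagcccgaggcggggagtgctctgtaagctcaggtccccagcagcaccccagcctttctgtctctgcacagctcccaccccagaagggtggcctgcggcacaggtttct
Tyk2: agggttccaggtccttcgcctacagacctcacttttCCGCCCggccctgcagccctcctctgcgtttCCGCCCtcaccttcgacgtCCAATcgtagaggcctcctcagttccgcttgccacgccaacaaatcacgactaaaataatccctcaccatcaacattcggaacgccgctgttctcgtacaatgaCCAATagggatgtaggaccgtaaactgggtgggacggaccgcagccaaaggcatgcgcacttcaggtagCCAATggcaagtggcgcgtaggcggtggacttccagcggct

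The Jak3 window held 9 CpG dinucleotides, against 29 for Jak1, 44 for Jak2 and 23 for Tyk2. Of 32851 mouse promoter windows of the same length, 54.2% held fewer CpGs than that of Jak3, 78.5% fewer than that of Tyk2, 87.1% fewer than that of Jak1 and 97.8% fewer than that of Jak2. The GC box occurred once in Jak1 and in Jak3, in 2 places in Tyk2 and in 3 in Jak2, and 35.7% of all windows held it. The CCAAT box occurred once in Jak1 and in 3 places in Tyk2, with 37.4% of all windows holding it. The response element TGACGTCA occurred in Jak1 alone among the 4 windows and in 1.79% of all. None of the 4 windows held TATAAA, found in 13.6% of all, or the STAT-type palindrome TTCNNNGAA, found in 8.30%. No matches overlapped in these windows, and a match describes the letters only.

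Between the parental lines, Jak1 and Tyk2 were close to even, and Jak2 and Jak3 were not. The SD of the log2 level over the 6 parental lines was 0.24 for Jak1, 0.20 for Tyk2, 0.80 for Jak2 and 1.11 for Jak3, where the median of the 12734 genes tested was 0.40. Of those genes 86.4% had a smaller SD than Jak3, 78.5% than Jak2, 17.8% than Jak1 and 10.8% than Tyk2. Over tested genes with a promoter window, the 1512 with at most as many CpGs as Jak3 had a median SD of 0.65, and the 8281 with more had 0.37; this is a description across genes, and Jak2, with the most CpGs of the 4, varied more than either median.

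Jak3, on chromosome 8 from 71676383 to 71690577 (GRCm38, 25 exons in the transcript used), was the most variable of the kinases. Its parental level was 28.8 CPM in line 52205, 5.65 in 52419, 33.1 in 52424, 48.0 in 53105, 12.3 in 53369 and 33.2 in 53371, an 8.50-fold range. Line 53105 was highest and 52419 lowest, and the same lines stood at the ends among the Cre libraries. The lowest value, 2.84 CPM in the Cre library of 52419, rested on 37 reads (95% exact Poisson interval of 2.00 to 3.92 CPM, counting error only). The difference between lines passed the moderated F test of limma, adjusted p = 2.61e-05 by Benjamini-Hochberg. In the order of the line means over both libraries, 53369 lay 3.72 times the residual SD above 52419, and 53371 lay 4.84 SD above 53369. The steps from 53371 to 52205 and on to 52424 were within that SD (0.86 and 0.11), and 53105 stood 2.68 SD above 52424.

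Jak2, the kinase of hormone receptors and of one chain of the interferon gamma receptor, lies on chromosome 19 from 29251803 to 29313095. It reached 191 CPM in parental line 52205, 129 in 52419, 150 in 52424, 176 in 53105, 47.8 in 53369 and 231 in 53371. Line 53369 was far below the other 5, and its Cre library was the lowest of all at 45.1 CPM. The lines differed with adjusted p = 9.62e-05 in the same limma F test. Line 53369 lay 4.30 residual SD below 52419, and 52419 lay 2.65 SD below 52424, whereas 52424, 52205, 53105 and 53371 followed in steps of 0.06 to 1.15 SD.

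Jak1, the gene that Cre was meant to delete, lies on chromosome 4 from 101151974 to 101265282. Its parental level was 207 CPM in 52205, 125 in 52419, 183 in 52424, 172 in 53105, 165 in 53369 and 170 in 53371. Line 52419 was the lowest by 2.77 residual SD, and no other step in the order exceeded 1.22 SD. The F test between lines gave adjusted p = 0.00737 (limma), and 0.152 without the pair of line 52419.

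Tyk2, the partner of JAK1 at the type I interferon receptor, lies on chromosome 9 from 21104068 to 21131393. It was measured at 37.6 CPM in parental line 52205, 48.4 in 52419, 53.8 in 52424, 45.7 in 53105, 38.1 in 53369 and 41.5 in 53371. The highest was 1.43-fold above the lowest, and no step in the line order exceeded 1.69 residual SD. The difference between lines did not pass the limma F test (adjusted p = 0.0868), and it passed without the pair of line 52419 (adjusted p = 0.0310). With 3 of 4 kinases called between lines, the family was close to the background, since 71.1% of all tested genes were called.

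**Figure D1:**
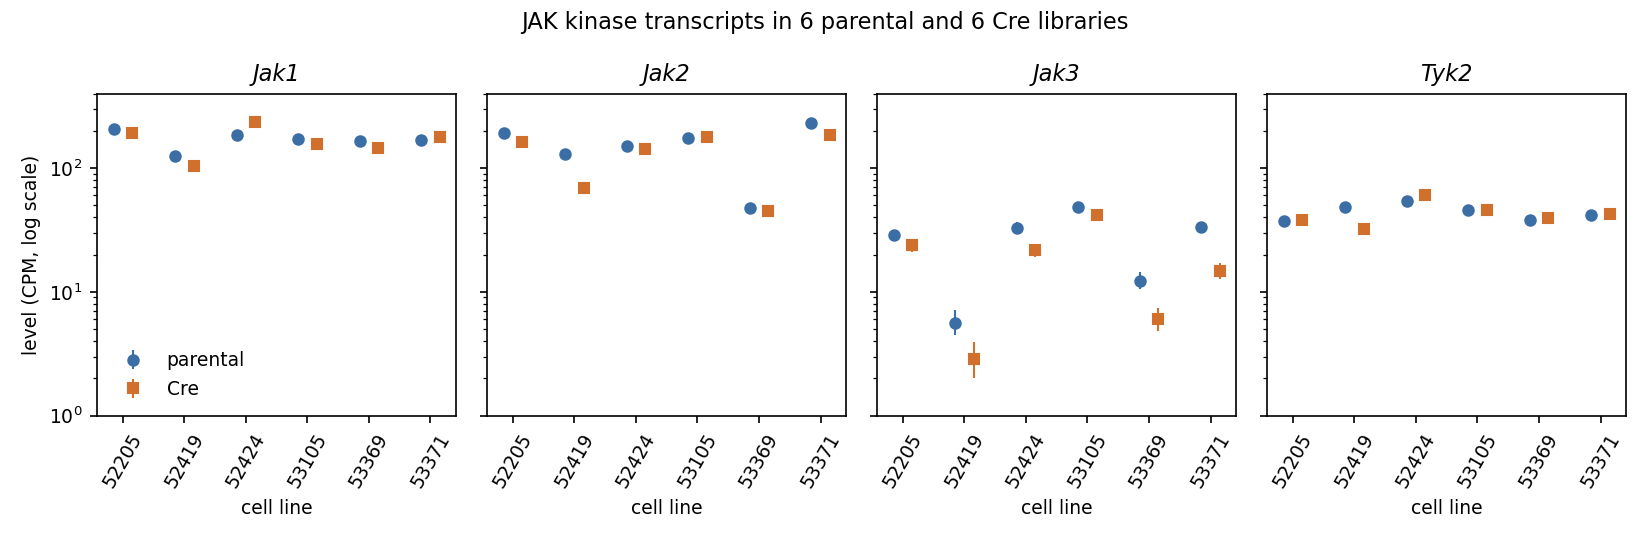
Level of each Janus kinase in CPM (log axis) in the parental (circles) and Cre (squares) library of the 6 cell lines; bars are 95% Poisson counting intervals, mostly smaller than the symbols. Jak3 spans 2.84 to 48.0 CPM and Jak2 45.1 to 231 CPM, while Jak1 stays between 104 and 234 CPM and Tyk2 between 32.4 and 60.2 CPM.

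The lines lowest in Jak3, 52419 and 53369, were also the lines low in Cdh1. Their summed epithelial markers were 445 and 1766 CPM in the parental libraries, against 4489 to 12977 CPM in the other 4 lines. The sum of the mesenchymal markers (8 of 9 in the table) did not set both lines apart. In the parental libraries it was 4643 CPM in 53369, 2649 in 52205, 2609 in 52419 and 530 to 2155 in the other 3 lines. This sum was mostly Vim, at 2548 CPM in parental 52205. Parental Pdgfra was higher in 52419 and 53369 (67.0 and 160 CPM) than in the other 4 lines (6.54 to 13.7). The same held for Pdgfrb (52.5 and 106 CPM, against 0.344 to 18.5), Col1a1 and Dcn. Vim, Zeb1, Col3a1 and Acta2 did not set both lines apart. Among the 4 lines with high Cdh1, line 53105 had the highest Jak3 and the lowest epithelial sum, 4489 CPM. Epcam, Muc1 and Cldn4 were lowest in 52419 and 53369 but also low in parental 53105, at 1.99, 11.2 and 4.09 CPM. Sox9 did not set 52419 and 53369 apart, with 171 and 118 CPM against 55.9 to 242 in the other parental libraries. The part of epithelial state in the Jak2 and Jak3 levels was not tested.

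**Figure D2:**
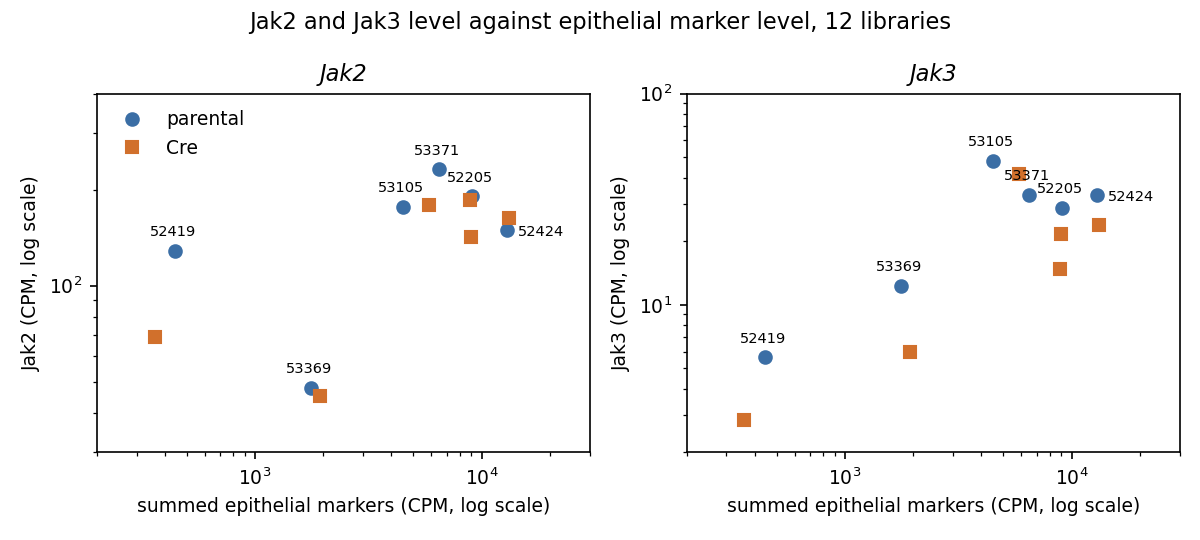
Jak2 (left) and Jak3 (right) level in CPM against the sum of 9 epithelial markers in CPM, both on log axes, in the 6 parental (circles, with line names) and 6 Cre libraries (squares). Lines 52419 and 53369 lie at the left, with parental Jak3 at 5.65 and 12.3 CPM; the parental Jak2 of 53369 is 47.8 CPM and that of 52419 is 129 CPM.

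Leukocyte markers were at or near 0 beside Jak3. Ptprc, the pan-leukocyte phosphatase CD45, was at most 1.02 CPM and was at 0 in the Cre libraries of 53105 and 53371, which held 41.4 and 14.8 CPM of Jak3. Csf1r, a macrophage receptor, was at most 2.93 CPM, and 10 of the 15 leukocyte markers were in the table, of which none reached the level for testing. Line 53105, with the most Jak3, had the lowest leukocyte sum, 0.114 CPM in the parental library. The highest sum, 3.53 CPM, was in parental 52424, where Jak3 was 33.1 CPM. Parental 53369, with Jak3 at 12.3 CPM, had a sum of 0.382 CPM. Il2rg, the receptor chain that JAK3 binds, was too low to be tested: it lay between 0.0593 and 1.14 CPM in 5 lines and at 8.03 (parental) and 6.84 CPM (Cre) in 52419, the line with the least Jak3. In line 53105 Il2rg was at 0.341 and 0.0593 CPM.

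Compared per length, Jak1 and Jak2 made up most of the family. Levels were divided by the length of the longest coding transcript, 4906 bases for Jak1, 5030 for Jak2, 4019 for Jak3 and 4828 for Tyk2. The parental share of the summed CPM per kb was 44.1% ± 9.48 for Jak1, 36.4% ± 10.1 for Jak2, 11.8% ± 3.18 for Tyk2 and 7.75% ± 3.65 for Jak3 (SD, n = 6). With these lengths the order was Jak1, Jak2, Tyk2, Jak3 in 7 of 12 libraries and Jak2, Jak1, Tyk2, Jak3 in 3. Both libraries of line 53105 differed in having Jak3 above Tyk2, with 13.1% against 10.3% in the parental library. First place was close in parental 53105, with 38.3% each for Jak1 and Jak2, and in parental 52419, with 40.7% and 41.0%. The order and the shares also depended on the length used. With all exons merged, the lengths were 7227 bases for Jak1, 5030 for Jak2, 5352 for Jak3 and 6865 for Tyk2. Jak2 then stood above Jak1 in most libraries. In line 53369, by the transcript lengths above, Jak1 alone held 62.2% of the parental and 61.3% of the Cre sum, and Jak2 17.5% and 18.6%. The parental Jak1 level of that line, 165 CPM, lay within the range of the other lines. Its Jak2 was low at 47.8 CPM, and its summed level was the lowest of the parental libraries at 54.2 CPM per kb.

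**Figure D3:**
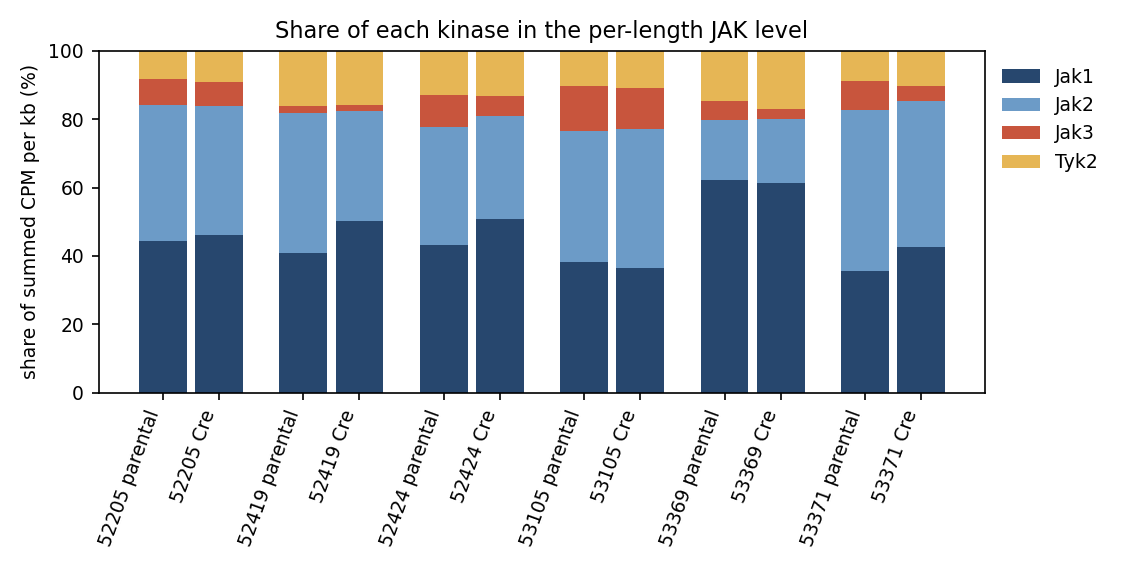
Share of each Janus kinase in the summed CPM per kb of the 4 (percent), with a parental and a Cre bar for each line. Jak1 takes 62.2% in parental 53369 and 35.5 to 44.4% in the other parental libraries; the Jak3 band is narrower in the Cre than in the parental bar of every line.

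The pairs of Cre and parental libraries ask how the family's transcripts differ once Jak1 has been targeted. Jak3 had the largest difference of the 4 and was lower in the Cre library of every line, Jak2 was lower in 5 of 6, and Jak1 and Tyk2 were close to 0. No kinase passed the limma fit over all genes with a line block and no library weights, which called 3 genes or 0.0236% of those tested, all lower. DESeq2 and limma with library weights called Jak3.

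Jak1 was 192 CPM after Cre in 52205, 104 in 52419, 234 in 52424, 155 in 53105, 145 in 53369 and 179 in 53371. Of the 6 pairs 4 were lower and 2 higher, with the ends of the range in lines 52424 (127% of parental) and 52419 (83.6%). The log2 change was -0.04 (95% confidence interval -0.24 to 0.15). The table gives 1 total per gene and the labels do not name the exons that Cre removes, so this total does not check the deletion.

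Jak3 was 23.8 CPM after Cre in line 52205, 2.84 in 52419, 21.6 in 52424, 41.4 in 53105, 6.0 in 53369 and 14.8 in 53371. These were 82.9, 50.3, 65.3, 86.3, 48.7 and 44.6% of the parental values of the same lines. The groups overlapped across lines, and the Cre library was the lower of each pair. The mean log2 change was -0.68 (SE 0.14, 95% confidence interval -1.0 to -0.36) on the log2(CPM + 0.5) scale, a 1.60-fold lower level. The limma p was 0.0009 before and 0.155 after Benjamini-Hochberg adjustment, rank 74 of 12734 genes. The exact sign-flip permutation test over the 6 pairs gave p = 0.0313, the smallest it can give, 2-sided and unadjusted. Being lower in all 6 pairs was met by 4.56% of tested genes. DESeq2 on the recovered reads gave a change of -0.69 with adjusted p = 0.00980, among 1.63% of genes it called lower, and limma with library weights gave -0.77 with adjusted p = 0.0464. edgeR's quasi-likelihood test did not call it.

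Jak2 was 162 CPM after Cre in 52205, 69.0 in 52419, 142 in 52424, 179 in 53105, 45.1 in 53369 and 185 in 53371. The largest difference was in line 52419, where the Cre level was 53.6% of the parental one, and line 53105 was 101.7%. The log2 change was -0.26 (SE 0.12, 95% confidence interval -0.52 to -0.0048), with limma adjusted p = 0.325 by Benjamini-Hochberg and exact sign-flip permutation p = 0.0625. Without the pair of line 52419 the change was -0.14 (limma adjusted p = 0.562). Jak2 and Jak3 were the members lower at an unadjusted p under 0.05, a level that 8.18% of tested genes met.

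Tyk2 was 37.8 CPM after Cre in 52205, 32.4 in 52419, 60.2 in 52424, 46.0 in 53105, 39.4 in 53369 and 42.5 in 53371. It was higher in 5 pairs, by at most 0.16 on the log2 scale, and lower by 0.57 in line 52419 alone. The mean change of -0.05 (95% confidence interval -0.28 to 0.18, limma adjusted p = 0.838) became 0.05 without the pair of line 52419.

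**Figure D4:**
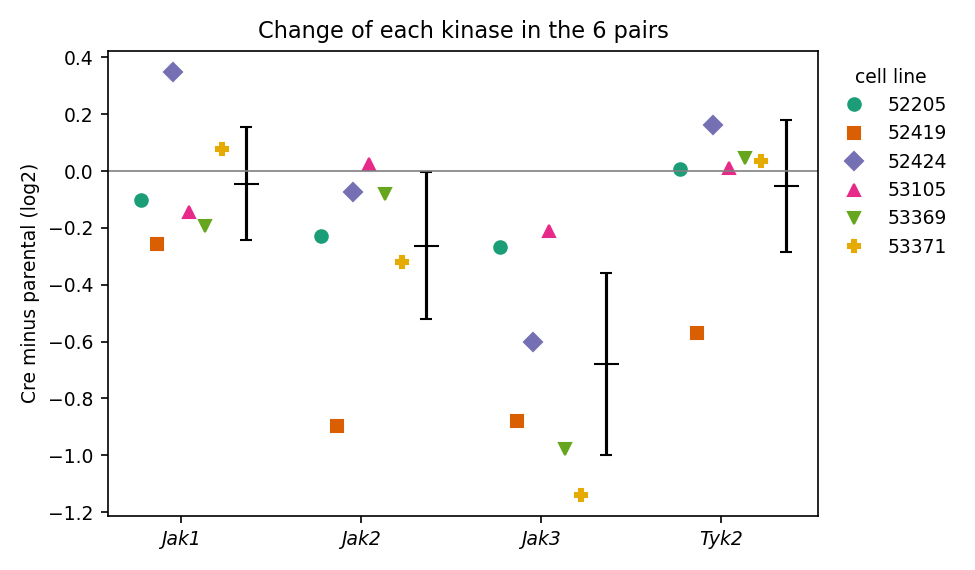
Cre minus parental difference in log2(CPM + 0.5) for each kinase; symbols are the 6 lines and the bar beside them is the limma mean with its 95% confidence interval. All 6 Jak3 symbols lie below 0, from -1.14 in line 53371 to -0.21 in line 53105, and line 52419 is the lowest symbol for Jak1, Jak2 and Tyk2.

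Set against the other kinases within each pair, the Jak3 change was lower than that of Jak1 by 0.63 ± 0.45 and than that of Tyk2 by 0.63 ± 0.42 (log2, SD, n = 6 pairs), in 6 of 6 pairs each, and exact sign-flip permutation gave p = 0.0313 for both. Against Jak2 the difference was 0.42 ± 0.39, in 5 of 6 pairs, with exact sign-flip permutation p = 0.0625. These 3 comparisons were made after the values were seen and are unadjusted. They use the same Jak3 changes as above and are not separate observations.

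The share of Jak3 in the family was 2.15 ± 1.45 percentage points lower after Cre (SD, n = 6 pairs), down in 6 of 6 pairs from 7.75% to 5.60%, exact sign-flip permutation p = 0.0313. Its parental and Cre shares overlapped between lines, from 2.25 to 13.1% and from 1.67 to 11.8%. The share of Tyk2 was 0.93 points higher, in 5 of 6 pairs (exact sign-flip permutation p = 0.0625). The mean change was 3.82 points for Jak1 and -2.60 for Jak2, each with exact p = 0.1875 and pairs in both directions. The 4 tests are unadjusted, and that of Jak3 restates its lower level in each pair and is not a separate observation. The summed level was 81.1 ± 18.2 CPM per kb in the parental and 73.7 ± 22.3 in the Cre libraries, lower in 5 of 6 pairs and higher in line 52424.

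The genes next to the kinases were looked at because overlapping genes can share reads. Insl3, a hormone gene inside the 3′ end of the Jak3 locus (71689252 to 71690577), had at most 5 reads in a library. Raver2, which overlaps the end of Jak1, had at most 27 reads. Unc13a, which lies 4609 bases from Jak3 and encodes a protein of synaptic vesicle release, had a log2 change of -0.66 and was lower in 5 pairs (limma adjusted p = 0.206). B3gnt3, a glycosyltransferase gene 796 bases from the other end, changed by -0.0061 (limma adjusted p = 0.981). Next to Jak2, Insl6 and Rcl1 changed by 0.15 and 0.16, next to Tyk2, Raver1 and Cdc37 by 0.21 and 0.02, and next to Jak1, Cachd1 and Ak4 by 0.13 and -0.23, none of them called.

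The genes whose log2 level over the 12 libraries was most like each kinase were found by Pearson's r. For Jak3 they were Kdm5b, a histone demethylase (0.97), AU040320 (0.97) and Fam117b (0.96). For Jak2 they were Trf, which encodes transferrin (0.97), 2200002D01Rik (0.97) and Ascc3, a helicase (0.96). For Jak1 they were Zfp40 (0.93), Ugt1a7c, a glucuronosyltransferase (0.93), and Acaa1b, a peroxisomal thiolase (0.92). For Tyk2 they were Vsig10 (0.90), Mtf1, a metal-responsive transcription factor (0.89), and Asah1, an acid ceramidase (0.88), and without line 52424 these 3 values were 0.75, 0.71 and 0.71. Within the family Pearson's r was 0.73 for Jak1 with Jak3, 0.71 for Jak2 with Jak3 and 0.48 or less for the other 4 pairings, and Spearman's rho was 0.46, 0.71 and 0.46 or less. The libraries form 6 pairs of 1 line each, so these values hold line differences as well as Cre differences and are given with no test. For the named genes Pearson's r of the Cre minus parental change with that of the kinase ran from 0.55 (Fam117b) to 0.91 (Ugt1a7c). It was 0.90 for Kdm5b with Jak3. The genes were picked from the same libraries.

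The receptor chains were grouped by the kinase they bind. Of 16 chains that bind JAK1, 9 were expressed well enough to test and 7 had an estimate below 0. Osmr was called, where 0.0236% of all tested genes were. Osmr, the oncostatin M receptor, was 5.11, 7.36, 14.3, 9.27, 15.1 and 10.5 CPM in the parental libraries in the order of line numbers, and 0.269, 1.15, 2.11, 3.32, 2.14 and 2.87 CPM after Cre. The groups did not overlap, and the log2 change was -2.21 (limma adjusted p = 0.0181, Benjamini-Hochberg). The call was lost with no filter on low genes (adjusted p = 0.117) and without the pair of 52419, 52424 or 53369 (0.0907, 0.0816 and 0.0783), and in the fit with no line block. Il4ra, a receptor chain for interleukins 4 and 13, changed by -0.55 (DESeq2 adjusted p = 0.0108, where DESeq2 called 1.63% of tested genes lower). Crlf2 changed by -0.38 and Ifnar2, a chain of the type I interferon receptor, by -0.28. Limma called none of these genes. The median of the 9 was -0.26, where that of all tested genes was -0.00024.

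Among the 4 chains that bind TYK2, all were tested and Il13ra1 was called, where 0.0236% of all tested genes were. Il13ra1, a receptor chain for interleukin 13, was 15.2, 10.6, 49.0, 32.2, 36.7 and 22.2 CPM in the parental and 7.08, 2.38, 18.9, 10.1, 13.1 and 12.4 CPM in the Cre libraries, in the order of line numbers. The groups overlapped, but each line was lower after Cre, by 1.38 on average on the log2 scale (limma adjusted p = 0.0273, Benjamini-Hochberg). The call was lost with no filter on low genes (adjusted p = 0.117) and without the pair of 52419, 52424, 53105 or 53369 (0.0907, 0.0931, 0.0868 and 0.129), and in the fit with no line block. Ifnar1 and Il10rb each changed by -0.07 and Il12rb1 by 0.28, and the median of the 4 was -0.07.

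Of 10 chains that bind JAK2, 4 were tested and none was called by limma without weights, with 1 lower at an unadjusted p under 0.05, where 8.18% of all tested genes were, and a median of -0.19. Lepr, the leptin receptor, was lower in 6 of 6 pairs (log2 change -0.80, adjusted p = 0.0997 by limma). It was called by DESeq2 (2.01e-05), by limma with library weights (0.0324) and by limma without the pair of 52205 (0.0425). All 3 of these settings called more genes lower than the main fit, DESeq2 1.63% of those tested. Ghr, the growth hormone receptor, was lower in 3 pairs and higher in 3, with a mean change of -0.32 (-0.18 without the pair of 53371). Ifngr2 changed by -0.06 and Epor, the erythropoietin receptor, by 0.06.

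**Figure D5:**
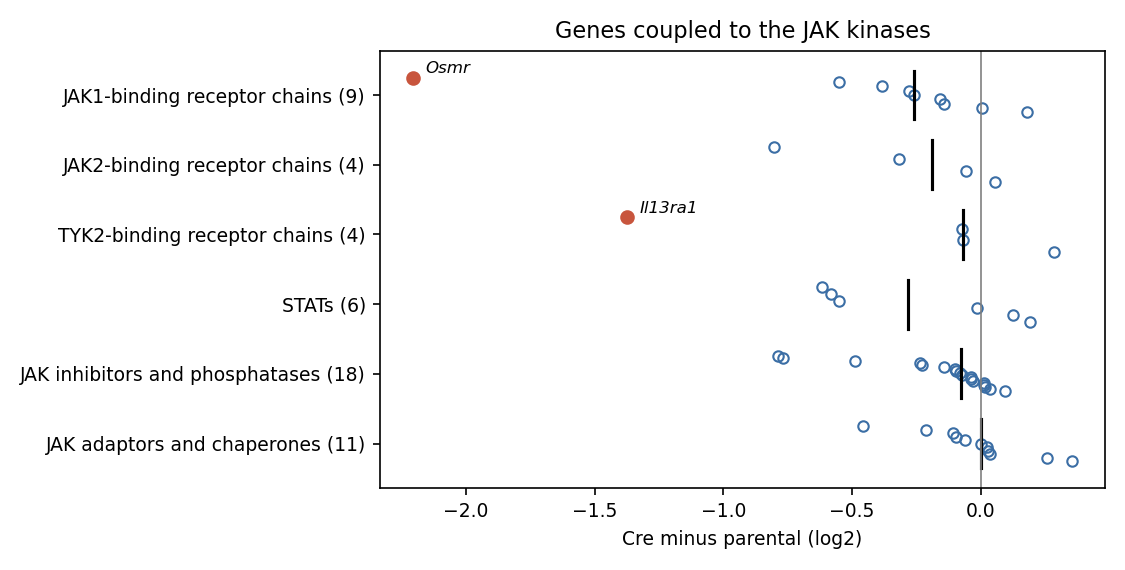
Cre minus parental log2 change of the tested genes in 6 lists of genes coupled to the Janus kinases, with the number tested in brackets; filled red points passed the limma test over all genes, open points did not, and black lines are list medians. Osmr at -2.21 and Il13ra1 at -1.38 are the filled points, and the 6 medians lie between -0.28 and 0.00080.

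Downstream of the kinases, 6 of 7 STAT genes were tested, none was called by limma without weights, 2 had an unadjusted p under 0.05 with a lower level (8.18% of all tested genes), and their median was -0.28. Stat3, the main STAT of the oncostatin M and leptin receptors, was 108, 119, 164, 134, 154 and 135 CPM in the parental and 75.7, 60.1, 145, 101, 91.6 and 97.5 CPM in the Cre libraries, in the order of line numbers. It was lower in every pair, with a log2 change of -0.55. It was called by DESeq2 (adjusted p = 0.00135) and by limma with library weights (0.0324), and not by limma without weights. Both methods that called it also called more genes lower than limma without weights, DESeq2 1.63% of those tested. Stat2, which pairs with other STATs after type I interferon, changed by -0.58, with the widest difference in line 52419 (42.9 CPM, and 10.6 after Cre), and Stat5b by 0.19. Without the pair of that line these changes were -0.31 and 0.092.

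Of 19 inhibitors and phosphatases of the pathway, 18 were tested, none was called by limma without weights, 3 had an unadjusted p under 0.05 with a lower level (8.18% of all tested genes), and the median was -0.08. Socs3, a feedback inhibitor of JAK1 and JAK2 that STAT3 induces, was lower in 6 of 6 pairs with a log2 change of -0.77. It was called by DESeq2 (adjusted p = 0.00418), which called 1.63% of tested genes lower, and by limma with library weights (0.0343). Socs2 changed by -0.79 (DESeq2 adjusted p = 0.0496), with the highest parental levels in 53371 (88.1 CPM, and 26.1 after Cre), 52205 (69.1 and 75.9) and 52424 (66.3 and 27.8), Cish by -0.49 and Sh2b3, which encodes the JAK2 inhibitor LNK, by -0.23. Of 11 adaptors and chaperones, all were tested, none was called, and the median was 0.00080. At an unadjusted limma p under 0.05, 1 was lower (Sh2b2, in 6 of 6 pairs) and 1 higher (Hsp90aa1, in 5 pairs). Of all 12734 tested genes, 8.18% were lower and 886 genes were higher at that level. Hsp90aa1, a chaperone of kinases including the JAKs, changed by 0.35, Sh2b2 by -0.46, Irs1 by -0.21 (-0.084 without the pair of 52205) and Irs2 by 0.26 (0.12 without 52424, 0.39 without 52205).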

How the data were processed

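Poly(A)-selected RNA of 12 cultures was sequenced, per the labels' protocols, and the tools named in the submitters' processing notes are FastQC 0.11.9, featureCounts and edgeR, with the builds GRCm38 and mm10. The aligner is not given in the sources used here, and the protocol names no step that marks strand. In the linear table that the authors deposited, each signal value is a scaled read count per 1000000 reads, and edgeR's TMM factors recomputed from the reads matched the scaling. Every value above 0 was a whole number of reads within a tolerance of 0.01, so reads were recovered by division. The other deposited table, of log2 values, covers 10903 of the 20432 genes, chosen by a rule not given in the sources used here, and served as an alternative. Symbols came from RefSeq for 19448 genes and from GENCODE for 11, and 973 stayed unnamed. Transcript lengths came from GENCODE and promoters from RefSeq.

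Genes with at least 1 CPM in at least 6 libraries, 12734 in all, were fitted on log2(value + 0.5) with limma-trend (limma 3.58.1, R 4.3.3). Terms were a block for the line and Cre against parental, 2-sided, with Benjamini-Hochberg adjustment over all genes tested and calls under 0.05. The block was used because the series design names isogenic pairs; deviations from the group mean correlated at 0.73 to 0.95 within a line and at most 0.66 between lines. Line differences were tested by the F test of the same fit, with the 2 libraries of a line as its values. Nothing says that lines share a source animal or batch, and each line and condition has 1 library. The p-values for Cre therefore measure how alike the change was over lines. Those of the F test set line differences against how far the 2 libraries of a line disagreed after the mean Cre difference. The single-gene test was an exact sign-flip over 6 pairs. The fit was tested on simulated data. Alternatives, whose effect is given in the closing section, were other pseudocounts, filters, scalings and lengths, library weights, no block, each pair left out, and edgeR 4.0.16 and DESeq2 1.42.0 on the recovered reads. Genes named beside the kinases and markers are, by rule, the 4 tested genes with the smallest p of each list, the 3 genes most alike to each kinase and its neighbours. The members and lists were chosen with earlier results of these data known. Counts over lists include some genes whose own values are not reported here. Protein sequences were not used here.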

Additional observations from a re-analysis of the deposited data

Results flagged for a closer look

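Of 24 sets of 6 values (levels, changes and shares of the 4 kinases), 3 had a value far from the other 5, where chance alone sets apart about 1 in 20. The Jak1 share in parental line 53369 was 62.2%, and the other parental shares were 35.5 to 44.4%. The Jak2 log2 level in the same library was 5.59, and the other parental lines were at 7.01 to 7.86. A low Jak2 level raises the Jak1 share, so that share and that level are not separate observations. The Tyk2 change in line 52419 was -0.57 on the log2 scale, and the other 5 pairs changed by 0.0076 to 0.16.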

How the results depend on the processing

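Jak3 was lower in Cre under every setting tried, from -0.77 to -0.59 on the log2 scale. It was called with DESeq2 (-0.69, adjusted p = 0.00980) and with limma library weights (-0.77, adjusted p = 0.0464) and in no other setting; the cause was not tested. The Jak3 share change ran from -2.47 to -1.75 points over left-out pairs, where 5 pairs cannot give an exact sign-flip permutation p below 0.0625. The Tyk2 share change was 0.97 points with all exons merged (exact sign-flip permutation p = 0.0313). The Tyk2 log2 change ran from -0.094 to 0.052 over left-out pairs. Over left-out pairs the adjusted p between lines ran from 0.00423 to 0.152 for Jak1 and from 0.0310 to 0.587 for Tyk2.

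Genes called lower numbered 0 with no filter, 5 with edgeR, 208 with DESeq2, 33 with library weights and 0 to 5 over left-out pairs (0 without 52419, 52424 or 53369, 1 without 53105, 5 without 52205), against 3; the filter changes which genes are tested, and otherwise the cause was not tested. Genes called higher numbered 62 with DESeq2 and 1 with library weights, against 0 (886 at an unadjusted p under 0.05). Without the pairing (no replicate block) 0 genes were called lower, and the Jak3 share change of -2.15 points had an exact permutation p of 0.323.

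Values near 0 changed sign: over left-out pairs Ifngr2 ran from -0.13 to 0.011, Epor from -0.073 to 0.20, Ifnar1 from -0.16 to 0.018, Il10rb from -0.18 to 0.014, the TYK2 chain median from -0.17 to 0.016 and the adaptor median from -0.028 to 0.0041. The adaptor median was also -0.00066 with library totals only, -0.0030 with DESeq2 size factors, -0.0031 with edgeR, -0.0020 with DESeq2 and -0.018 with library weights. Jak3 in line 52419 rests on 37 to 76 reads, which limits its change there most.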
